A study of Mus musculus with 5 samples.

Results

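The integrated stress response genes described here are Atf4 and 9 genes that act with it or lie downstream of it: Atf3, Atf5, Ddit3, Ddit4, Trib3, Asns, Chac1, Sesn2 and Nupr1. They were taken by symbol from a table of 23951 genes, and all 10 were found. They were picked by name with earlier results of these data known, among them a lower Atf4 level in 1 library of embryonic stem cells, so every value below is a description. RNA sequencing was done on 5 mouse libraries, 1 per group. Untreated epiblast stem cells derived from embryonic stem cells (EpiSCs, the primed state of pluripotency) were kept in N2B27 medium with FGF2 at 12 ng/ml and Activin A at 20 ng/ml on serum-coated plates. A pair of further EpiSC libraries followed 1.5 h or 24 h with BMP-4, added at 10 ng/ml. Embryonic stem cells of the E14 line (ESCs, the naive state) were kept on gelatin, either in a basal medium with LIF plus 10 ng/ml BMP-4 (LIF+BMP-4) or with LIF at 1000 U/ml and 15% fetal bovine serum (LIF+serum). The EpiSC source is labelled E14 as well. For the basal medium of the ESCs the growth protocol names both ESGRO Complete and N2B27 without saying which one gave the RNA. It lists a supplement of nonessential amino acids for the serum medium and none for N2B27. BMP-4, the loss of serum and the change of medium therefore cannot be told apart between the ESC libraries.

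In the integrated stress response, kinases that sense lack of amino acids, unfolded protein in the endoplasmic reticulum, double-stranded RNA or lack of haem phosphorylate the translation factor eIF2. General translation then slows while the mRNA of ATF4, a basic leucine zipper (bZIP) transcription factor, is translated more. ATF4 pairs with C/EBP proteins on composite C/EBP-ATF elements and raises genes of amino acid synthesis, amino acid uptake and tRNA charging, along with genes that end the response or lead to cell death. Because ATF4 is set to a large part by translation, its mRNA level is not a measure of ATF4 protein.

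The composite element was searched as TGATGNAA on both strands in windows of 250 bases before to 50 after each RefSeq gene start (build GRCm38.p6). It occurred in 5 of the 10 genes, in 1219 of all 27025 genes with a window (4.51%), and in 203 of the 8337 genes (2.43%) that had a window and averaged 1 FPKM or more here. The 10 were picked as genes that act with Atf4 or lie downstream of it, so their share is a description only. The 5 windows are shown because these genes share the letters that ATF4 and C/EBP proteins are known to bind. Capitals mark the match, which reads TTNCATCA where it lies on the opposite strand.
Asns (chr6:7693160-7693459, minus strand): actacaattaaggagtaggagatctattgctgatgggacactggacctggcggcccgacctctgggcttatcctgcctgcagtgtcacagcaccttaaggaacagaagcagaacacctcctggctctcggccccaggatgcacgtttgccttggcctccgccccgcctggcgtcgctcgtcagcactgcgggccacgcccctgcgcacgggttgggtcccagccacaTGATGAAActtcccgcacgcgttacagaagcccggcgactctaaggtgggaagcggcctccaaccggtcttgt
Chac1 (chr2:119350992-119351291, plus strand): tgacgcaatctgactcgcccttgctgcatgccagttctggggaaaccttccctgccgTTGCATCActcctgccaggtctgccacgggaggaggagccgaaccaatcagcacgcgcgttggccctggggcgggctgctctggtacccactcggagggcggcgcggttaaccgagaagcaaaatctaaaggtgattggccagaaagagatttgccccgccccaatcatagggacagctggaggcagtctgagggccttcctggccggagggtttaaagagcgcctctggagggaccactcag
Nupr1 (chr7:126625421-126625720, minus strand): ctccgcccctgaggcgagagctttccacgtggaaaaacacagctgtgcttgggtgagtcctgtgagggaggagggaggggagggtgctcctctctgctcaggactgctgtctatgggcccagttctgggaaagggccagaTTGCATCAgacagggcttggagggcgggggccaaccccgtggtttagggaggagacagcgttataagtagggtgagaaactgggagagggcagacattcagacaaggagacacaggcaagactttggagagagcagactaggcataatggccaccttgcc
Atf3 (chr1:191183284-191183583, minus strand): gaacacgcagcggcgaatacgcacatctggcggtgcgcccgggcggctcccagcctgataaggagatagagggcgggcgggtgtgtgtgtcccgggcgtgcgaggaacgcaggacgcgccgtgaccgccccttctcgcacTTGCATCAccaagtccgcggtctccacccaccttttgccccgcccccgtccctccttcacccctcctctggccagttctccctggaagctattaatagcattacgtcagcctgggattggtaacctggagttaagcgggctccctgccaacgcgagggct
Trib3 (chr2:152344011-152344310, minus strand): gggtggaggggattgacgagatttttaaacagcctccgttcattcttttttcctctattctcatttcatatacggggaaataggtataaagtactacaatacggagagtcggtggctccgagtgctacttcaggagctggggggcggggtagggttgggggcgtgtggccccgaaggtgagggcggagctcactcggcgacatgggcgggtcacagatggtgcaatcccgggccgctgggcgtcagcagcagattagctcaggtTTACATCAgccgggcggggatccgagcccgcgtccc
Asns carried TGATGAAA on the gene's own strand, 23 bases before the start. In Atf3 and in Nupr1 the same 8 letters, TTGCATCA, began 110 bases before the start, and in Chac1 they began 193 bases before it. In Trib3 the match TTACATCA began 15 bases after the start. No match lay in the windows of Atf4, Atf5, Ddit3, Ddit4 or Sesn2, which says only that these letters are not in those windows. In the wider gene lists described further on, the element lay in 2 of 11 amino acid synthesis genes with a window, 3 of 13 other reported ATF4 targets and 1 of 16 bZIP partners and relatives. It lay in 0 of 4 eIF2 kinase genes, 0 of 13 genes of the XBP1 and ATF6 arms of the unfolded protein response, and 0 of 7 other sestrin and mTORC1 inhibitor genes.

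Levels are FPKM (mapped fragments scaled by transcript length and library depth), so they are per length, and parentheses give the deposited 95% bounds. Each group held 1 library, so no difference was tested, no p-value is given, and the bounds are no spread between cultures. Depth, estimated from whole-read steps among low values, lay between 8.40 M reads for ESCs in LIF+serum and 13.2 M reads for EpiSCs at 24 h. The labelled cell types were borne out by their markers: the 6 naive genes summed to between 2.26 and 4.29 FPKM in the EpiSC libraries, against 1435 and 1627 FPKM in the ESC libraries, and the 6 primed genes to between 543 and 664 FPKM in EpiSCs, against 61.9 and 61.2 FPKM in ESCs. The primed sums rest mostly on Dnmt3b, at 403 FPKM in untreated EpiSCs and 288 FPKM at 24 h of BMP-4, and hide changes of single genes. At 24 h T stood at 89.2 FPKM against 11.9 FPKM in untreated EpiSCs. Otx2 stood at 8.21 FPKM at 24 h against 30.1 FPKM, and Fgf5 at 60.2 FPKM against 133 FPKM. In all, 4 of the 6 primed genes had smaller values at 24 h. Fibroblast markers summed to between 2.70 and 5.94 FPKM in all libraries, with Col3a1, Postn and Lum listed at 0 in both ESC libraries. Visceral endoderm markers summed to at most 6.34 FPKM and trophoblast markers to at most 14.8 FPKM. Neural markers summed to between 135 and 150 FPKM in EpiSCs, nearly all of it Nes, against 19.0 FPKM in ESCs in LIF+BMP-4 and 10.8 FPKM in ESCs in LIF+serum, and Pax6 stood at 6.40 FPKM in LIF+BMP-4 and 0.922 FPKM in LIF+serum. Their part in the results below was not tested, and in bulk RNA fewer cells with a transcript and less of it per cell cannot be told apart.

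**Figure D1:**
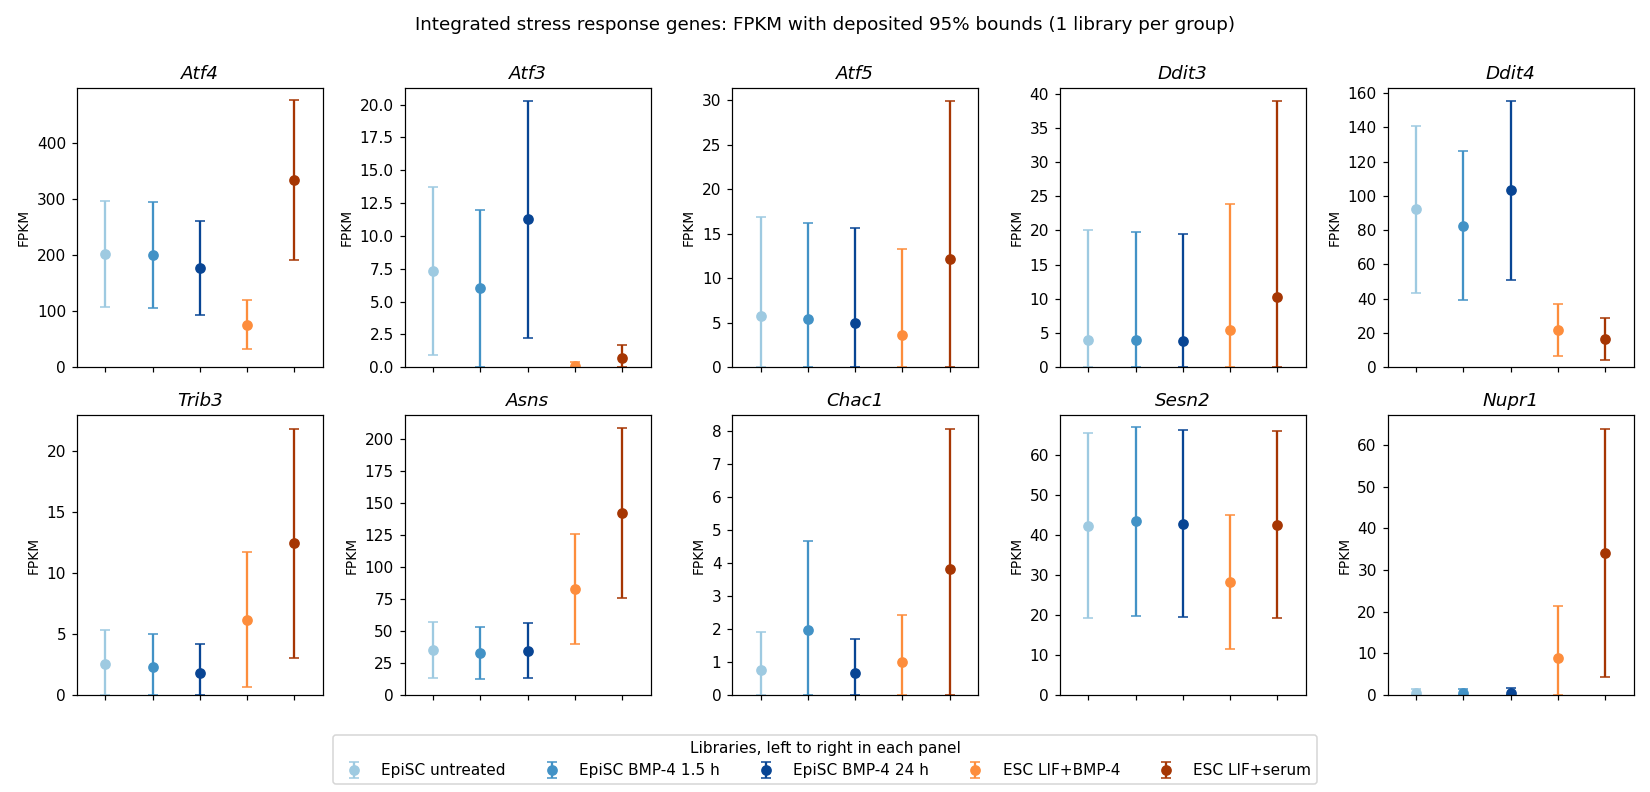
Level in FPKM of Atf4 and 9 response genes in each of the 5 libraries, with bars for the deposited 95% bounds and 1 library per group. Atf4 is lowest in ESCs in LIF+BMP-4 and highest in ESCs in LIF+serum, while Ddit4 and Atf3 are higher in all 3 EpiSC libraries than in either ESC library.

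Atf4 itself (mm9 chromosome 15, 80085614 to 80087975) was the most abundant of the 10 in every library other than the ESCs in LIF+BMP-4. It stood at 202 FPKM (108 to 296) in untreated EpiSCs, 200 (105 to 294) after 1.5 h and 176 (92.5 to 260) after 24 h of BMP-4, and at 75.9 (32.4 to 119) in ESCs in LIF+BMP-4 and 334 (191 to 476) in ESCs in LIF+serum. The 3 EpiSC libraries thus lay close together and between the ESC libraries, which bracketed them. The bounds of the ESC libraries did not overlap each other, while those of the untreated EpiSCs overlapped both. In ESCs in LIF+BMP-4 the enzyme gene Asns stood slightly above Atf4, at 82.8 FPKM against 75.9 FPKM, with overlapping bounds. Within any 1 library, neighbours in the order of levels had overlapping bounds, other than Asns over Sesn2 in ESCs in LIF+serum and Asns over Atf3 in EpiSCs after 1.5 h.

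Between the ESC libraries, 9 of the 10 genes had a smaller value in LIF+BMP-4 than in LIF+serum, as did 52.1% of all genes compared. Differences are of log2(FPKM + 1), which understates the change of low genes, folds are ratios of FPKM + 1, and a gene counts as higher or lower from 2-fold. At that size 4 of the 10 were lower and 0 higher, over a background of 1.28% of 11010 genes lower and 2.61% higher, or 3.89% either way. The median difference of the 10 was -0.86, beside -0.02 over all genes compared. All 10 passed the filter, a 5-library mean of 1 FPKM or more, Chac1 through its value in LIF+serum and, far above it, Nupr1 through the ESCs and Atf3 through the EpiSCs. From 1.5-fold, 8 of the 10 were lower and 0 higher, over a background of 5.08% and 8.15%. Atf3 only just reached that size, at 1.50003-fold on 0.117 FPKM in LIF+BMP-4 and 0.675 FPKM in LIF+serum, both near the limit of detection. Atf4 was 4.35-fold lower, and it was the 1 member with bounds apart, which held for 4 of the 11010 genes compared (0.0363%) among those 2-fold lower. These are the values that drew attention to the set, so they lend it no further weight.

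Among the bZIP factors, Atf5, a close relative of ATF4 that is likewise raised by translational control, stood at 3.65 FPKM (0 to 13.3) in ESCs in LIF+BMP-4 and 12.1 FPKM (0 to 29.9) in ESCs in LIF+serum, 2.82-fold lower. Ddit3, which encodes CHOP, a C/EBP-family factor linked to death under prolonged stress, stood at 5.37 FPKM (0 to 23.8) in LIF+BMP-4 and 10.2 FPKM (0 to 38.9) in LIF+serum, a difference of -0.81. Both bounds are wide, and both genes lie in a locus that the table gives as a whole, Ddit3 (chromosome 10, 126727849 to 126748842) with the methionyl-tRNA synthetase gene Mars and Atf5 (chromosome 7, 52067626 to 52104449) with Nup62, Tbc1d17 and Il4i1. In ESCs in LIF+serum the upper bound lay 282% above the value for Ddit3 and 147% above it for Atf5, where the median was 74.8% and 72.5% over genes of like level. Atf3, a stress-induced repressor and activator, stood at 0.117 FPKM (0 to 0.388) in LIF+BMP-4 and 0.675 FPKM (0 to 1.68) in LIF+serum. These values amount to about 2 and 11 reads at the estimated depth, so Atf3 was near the limit of detection in both ESC libraries.

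The target genes with roles in feedback and death also had smaller values in ESCs in LIF+BMP-4. Nupr1, a small chromatin-associated stress protein gene (chromosome 7, 133766760 to 133768984), stood at 8.92 FPKM (0 to 21.4) in LIF+BMP-4 and 34.1 FPKM (4.21 to 64.0) in LIF+serum, 3.54-fold lower with overlapping bounds. Chac1, whose enzyme degrades glutathione (chromosome 2, 119176978 to 119180062), stood at 0.988 FPKM (0 to 2.43) in LIF+BMP-4 and 3.83 FPKM (0 to 8.07) in LIF+serum, 2.43-fold lower, which is about 14 reads in LIF+BMP-4 and 53 in LIF+serum. Trib3, a pseudokinase that restrains ATF4 and CHOP activity (chromosome 2, 152163161 to 152169796), stood at 6.17 FPKM (0.624 to 11.7) in LIF+BMP-4 and 12.4 FPKM (3.02 to 21.8) in LIF+serum, just under 2-fold lower with a difference of -0.91. As a share of the LIF+serum value, Atf4 was at 22.8%, Chac1 at 25.8%, Nupr1 at 26.2%, Atf5 at 30.2% and Trib3 at 49.6%.

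Asns, Sesn2 and Ddit4, with roles in metabolism and growth control, lay within 2-fold between the ESC libraries. Asns, the asparagine synthetase gene (chromosome 6, 7625171 to 7643182), stood at 82.8 FPKM (40.2 to 125) in LIF+BMP-4 and 142 FPKM (75.8 to 209) in LIF+serum, a difference of -0.77. Sesn2, whose product holds back mTORC1 when leucine is low (chromosome 4, 132048722 to 132066371), stood at 28.2 FPKM (11.5 to 44.8) in LIF+BMP-4 and 42.5 FPKM (19.3 to 65.8) in LIF+serum, a difference of -0.58. Ddit4 (REDD1), another inhibitor of mTORC1 that also responds to hypoxia and glucocorticoids (chromosome 10, 59412423 to 59414518), was the exception in direction, at 21.8 FPKM (6.54 to 37.0) in LIF+BMP-4 and 16.6 FPKM (4.24 to 29.0) in LIF+serum, a difference of 0.37 with overlapping bounds.

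**Figure D2:**
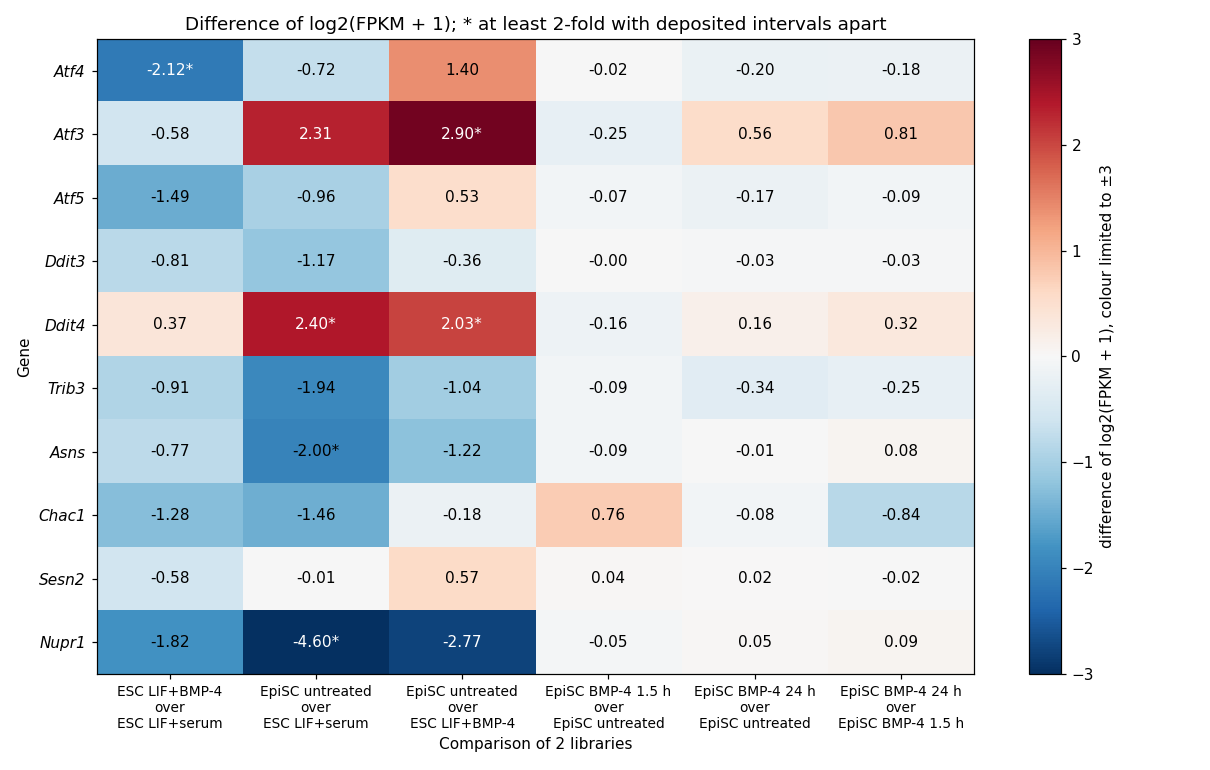
Difference of log2(FPKM + 1) for each of the 10 genes (rows) in 6 comparisons of 2 libraries (columns), with a star where the genes are at least 2-fold apart and the deposited intervals do not overlap. The column of the ESC comparison is negative for all genes except Ddit4, and the 3 columns among EpiSC libraries hold no difference of 2-fold.

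The wider regulon was described with gene lists drawn from knowledge of the pathway. Like the response genes, these lists were chosen with earlier results of these data known. Their counts and medians here and below are therefore descriptions, and lend the lower values of the response genes no independent weight. Of the amino acid synthesis genes, 12 of 12 compared had a negative difference in ESCs in LIF+BMP-4, beside 52.1% of all genes. The median was -0.57. Beside 1.28% of all genes, 3 of the 12 were at least 2-fold lower. These were Cth, the cystathionine gamma-lyase of cysteine synthesis, at 32.6 FPKM in LIF+BMP-4 and 77.8 FPKM in LIF+serum, the mitochondrial folate enzyme gene Mthfd2 at 18.4 FPKM in LIF+BMP-4 and 42.4 FPKM in LIF+serum, and the serine pathway gene Psat1 at 145 FPKM in LIF+BMP-4 and 291 FPKM in LIF+serum. Phgdh, the entry enzyme of serine synthesis, stood at 84.7 FPKM in LIF+BMP-4 and 139 FPKM in LIF+serum. The bounds overlapped for all of them.

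The tRNA synthetase genes were described apart by their link to ATF4. All 12 synthetase genes reported as ATF4 targets stood lower in ESCs in LIF+BMP-4 than in LIF+serum (median -0.54), 5 of them by at least 1.5-fold, though none reached 2-fold. Of all genes compared, 52.1% were below 0 and 5.08% at least 1.5-fold lower. The bounds overlapped for all 12. Cars, for cysteine, stood at 32.4 FPKM in LIF+BMP-4 and 61.5 FPKM in LIF+serum, Aars, for alanine, at 138 FPKM in LIF+BMP-4 and 239 FPKM in LIF+serum, and Gars, for glycine, at 232 FPKM in LIF+BMP-4 and 380 FPKM in LIF+serum. Of the 8 other cytoplasmic synthetase genes 7 were also below 0, but the median was -0.10 and 0 of 8 reached 1.5-fold. Kars, for lysine, stood at 199 FPKM in LIF+BMP-4 and 214 FPKM in LIF+serum and Dars, for aspartate, at 83.8 FPKM in LIF+BMP-4 and 84.7 FPKM in LIF+serum. The ranges of the lists met, since Sars of the first (-0.23) lay above Hars of the second (-0.30). No test of the difference between the lists was made.

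Amino acid transporter genes had a median of -0.52, with 7 of 9 below 0, beside 52.1% of all genes, and 0 at 2-fold. The cationic amino acid carrier gene Slc7a1 stood at 4.61 FPKM in LIF+BMP-4 and 8.69 FPKM in LIF+serum, and Slc3a2, the heavy chain shared by several carriers, at 81.0 FPKM in LIF+BMP-4 and 117 FPKM in LIF+serum, while Slc38a2, a glutamine carrier gene known as an ATF4 target, stood in the other direction at 59.8 FPKM in LIF+BMP-4 and 47.9 FPKM in LIF+serum. Other reported targets were mixed, with 9 of 13 compared below 0 and a median of -0.16. Among them the stress cytokine gene Gdf15 stood at 1.30 FPKM in LIF+BMP-4 and 2.85 FPKM in LIF+serum, and Txnip, which restrains glucose uptake, at 34.9 FPKM in LIF+BMP-4 and 20.9 FPKM in LIF+serum. The hormone gene Fgf21, not among the 13, was listed at 0 in all 5 libraries.

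Upstream genes showed no 2-fold difference between the ESC libraries. The kinase genes Eif2ak1 (HRI, haem), Eif2ak2 (PKR, double-stranded RNA), Eif2ak3 (PERK, endoplasmic reticulum) and Eif2ak4 (GCN2, amino acids) had differences of -0.24, -0.19, 0.31 and 0.61. Genes of eIF2, eIF2B and the eIF2 phosphatase regulators lay within 1.5-fold in 12 of 12 cases (median -0.10). Ppp1r15a (GADD34), an ATF4 target that recruits the phosphatase to eIF2, stood at 10.1 FPKM in LIF+BMP-4 and 10.5 FPKM in LIF+serum. These are transcript levels and say nothing of phosphorylation.

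The other arms of the unfolded protein response had mostly positive differences. Of 15 genes of the XBP1 and ATF6 arms 14 had a positive difference in ESCs in LIF+BMP-4 over LIF+serum (median 0.22). Of all genes compared, 52.1% were below 0. Xbp1 alone of the 15 reached 2-fold. Xbp1 stood at 24.0 FPKM (7.84 to 40.1) in LIF+BMP-4 and 9.72 FPKM (1.59 to 17.9) in LIF+serum, 2.33-fold higher with overlapping bounds. Of all genes compared, 2.61% were at least 2-fold higher. The chaperone genes Hspa5 (BiP) at 441 FPKM in LIF+BMP-4 and 391 FPKM in LIF+serum and Hsp90b1 at 835 FPKM in LIF+BMP-4 and 750 FPKM in LIF+serum differed little. Among other sestrins and mTORC1 inhibitors, Sesn1, a p53 and FOXO target, was 2.38-fold higher in LIF+BMP-4 with overlapping bounds. It stood at 18.9 FPKM (6.43 to 31.4) in LIF+BMP-4 and 7.35 FPKM (1.34 to 13.4) in LIF+serum, while Sesn3 stood at 3.55 FPKM in LIF+BMP-4 and 3.84 FPKM in LIF+serum. Of the bZIP partners and relatives 14 of 18 were below 0 (median -0.13) and 0 reached 2-fold, with Cebpb at 1.03 FPKM in LIF+BMP-4 and 2.65 FPKM in LIF+serum and Cebpg, a common partner of ATF4, at 7.70 FPKM in LIF+BMP-4 and 8.50 FPKM in LIF+serum.

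**Figure D3:**
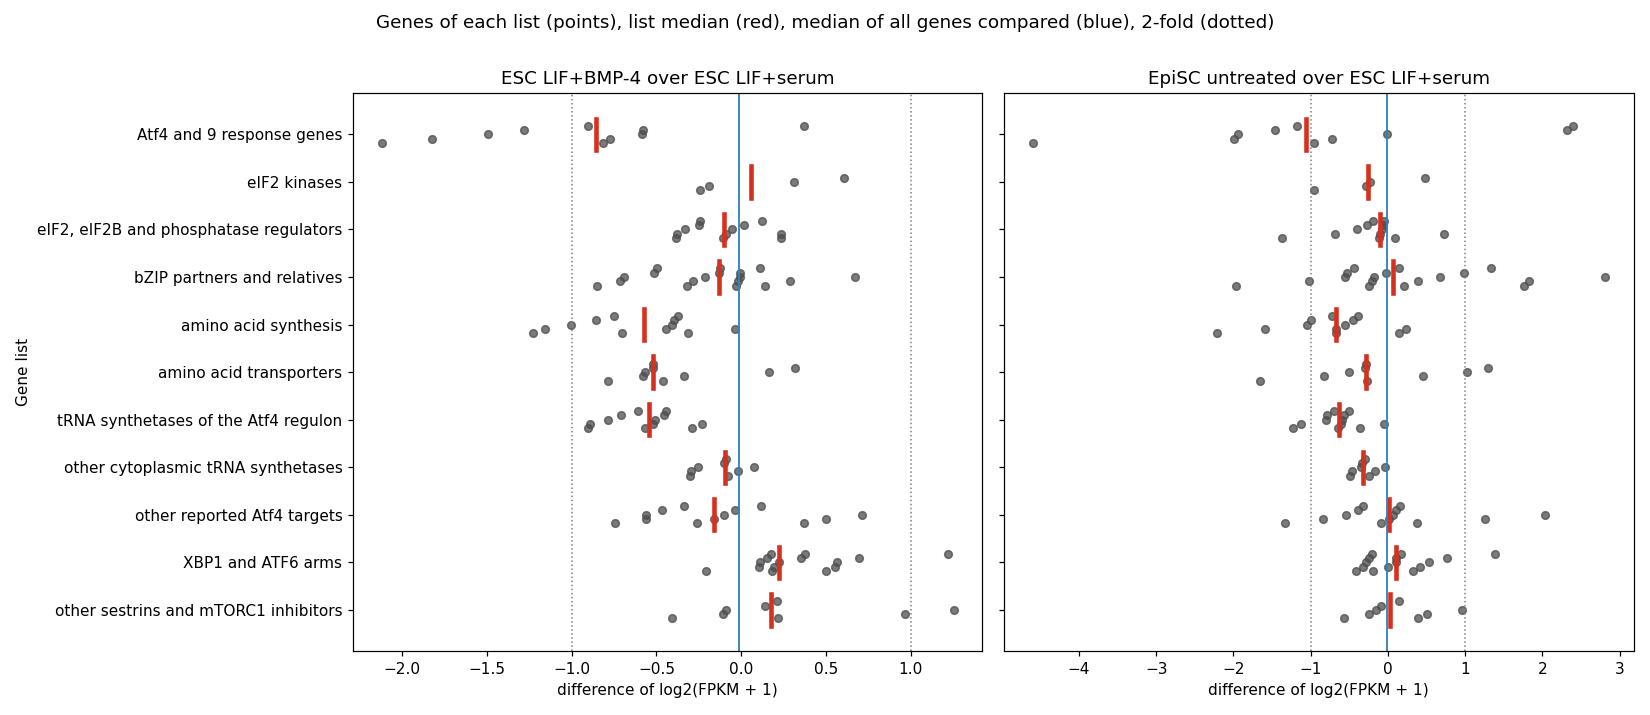
Difference of log2(FPKM + 1) of each gene in 11 lists, for ESCs in LIF+BMP-4 over LIF+serum (left) and untreated EpiSCs over ESCs in LIF+serum (right), with the list median in red, the median of all genes compared in blue and dotted lines at 2-fold. On the left the lists of amino acid synthesis, transport and ATF4-linked tRNA synthetases have medians between -0.57 and -0.52, and the list of the XBP1 and ATF6 arms has a median of 0.22.

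Untreated EpiSCs were compared with each ESC library, and these comparisons share the EpiSC library, so their values are set side by side only. EpiSCs and ESCs differ in cell state, but also in LIF against FGF2 and Activin A and in plate coating. ESCs in LIF+serum differ in medium as well. ESCs in LIF+BMP-4 had BMP-4, which untreated EpiSCs did not, and whether their basal medium was also N2B27 is not given. These factors cannot be told apart in any difference between EpiSCs and ESCs below. Against ESCs in LIF+serum 5 of the 10 genes were lower and 2 higher, over a background of 9.55% and 11.6% of 11007 genes (21.1% either way). With bounds also apart these were 2 and 1, over a background of 2.84% and 2.68%. Against ESCs in LIF+BMP-4 3 were lower and 3 higher, over a background of 10% and 11% (21% either way). With bounds also apart these were 0 and 2, over a background of 3.11% and 2.39%. The medians of the 10 were -1.07 and 0.18, beside -0.01 and 0.00 over all genes compared. Over all libraries, 4 of the 10 were lower in each EpiSC library than in both ESC libraries and 2 were higher, where 35.7% and 34.9% of 11005 genes did the same, so these shares are near or below the background. ESCs in LIF+serum held the highest level of the 5 libraries for 7 of the 10, beside 29% of all genes, and ESCs in LIF+BMP-4 the lowest for 4 (Atf4, Atf3, Atf5 and Sesn2), beside 26.1%. Chac1, Nupr1 and Atf3 passed the filter through the libraries where they were high. Where these 3 genes are counted here, they fall on the side that the filter favours and lend the counts no weight.

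Nupr1 was almost absent from EpiSCs. It stood at 0.451 FPKM (0 to 1.52) in untreated EpiSCs, 0.403 (0 to 1.35) after 1.5 h and 0.497 (0 to 1.65) after 24 h, against 8.92 and 34.1 FPKM in ESCs in LIF+BMP-4 and in LIF+serum. The EpiSC values amount to about 4, 4 and 5 reads. In untreated EpiSCs it was 24.2-fold lower than in LIF+serum with bounds apart, and 6.84-fold lower than in LIF+BMP-4 with overlapping bounds. The sizes depend on the pseudocount: the log2 difference of Nupr1 was -4.60 against LIF+serum, but -5.96 with a pseudocount of 0.1 FPKM and -2.84 with 5 FPKM, and -2.77 against LIF+BMP-4, but -4.03 and -1.35.

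Asns and Trib3 were lower in EpiSCs than in either ESC library. Asns stood at 34.9 FPKM (13.2 to 56.7) in untreated EpiSCs, 32.7 after 1.5 h and 34.7 after 24 h, against 82.8 and 142 FPKM in ESCs in LIF+BMP-4 and in LIF+serum. It was 3.99-fold lower than in LIF+serum with bounds apart and 2.33-fold lower than in LIF+BMP-4 with overlapping bounds. Trib3 stood at 2.50, 2.28 and 1.76 FPKM across the EpiSC libraries in the order of time, against 6.17 and 12.4 FPKM in ESCs, so in untreated EpiSCs it was 2.05-fold lower than in LIF+BMP-4 and 3.84-fold lower than in LIF+serum, with overlapping bounds. Atf4 took no such order: in untreated EpiSCs it was 2.64-fold higher than in LIF+BMP-4 ESCs, in which Asns and Trib3 were the higher ones. The bounds of Atf4 (108 to 296 and 32.4 to 119 FPKM) overlapped at their ends.

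Ddit3 stood at 3.97, 3.97 and 3.86 FPKM in the EpiSC libraries, against 5.37 and 10.2 FPKM in the ESC libraries. Atf5 stood at 5.73, 5.40 and 5.00 FPKM in EpiSCs, within the range of the ESC libraries. Chac1 stood at 0.760 FPKM (0 to 1.92) in untreated EpiSCs, 2.74-fold lower than in LIF+serum with overlapping bounds and near its level in LIF+BMP-4. Sesn2 stood at 42.3, 43.4 and 42.8 FPKM in EpiSCs, close to 42.5 FPKM in ESCs in LIF+serum, and its lowest level of all was the 28.2 FPKM of ESCs in LIF+BMP-4.

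Ddit4 and Atf3 were the members with higher levels in EpiSCs. Ddit4 stood at 92.1 FPKM (43.4 to 141) in untreated EpiSCs, 82.5 (38.9 to 126) after 1.5 h and 103 (50.8 to 156) after 24 h, against 21.8 and 16.6 FPKM in ESCs in LIF+BMP-4 and in LIF+serum. Each EpiSC interval lay above both ESC intervals, and in untreated EpiSCs Ddit4 was 5.29-fold higher than in LIF+serum and 4.09-fold higher than in LIF+BMP-4. Atf3 (chromosome 1, 192994176 to 193007212) stood at 7.33 FPKM (0.940 to 13.7), 5.99 (0.00729 to 12.0) and 11.3 (2.25 to 20.3) in the EpiSC libraries in the order of time. Against its 0.117 FPKM in LIF+BMP-4, which rests on about 2 reads, it was 7.46-fold higher in untreated EpiSCs with bounds apart, and against 0.675 FPKM in LIF+serum 4.97-fold higher with overlapping bounds. With pseudocounts of 0.1 and 5 FPKM the log2 difference of Atf3 was 5.10 and 1.27 against LIF+BMP-4, where it was 2.90, and 3.26 and 1.12 against LIF+serum, where it was 2.31.

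The lists of the wider regulon had medians between -0.67 and 0.02 for untreated EpiSCs over ESCs in LIF+serum. Of all genes compared, 9.55% were at least 2-fold lower and 11.6% at least 2-fold higher. Amino acid synthesis genes had a median of -0.67, with 3 of 12 at least 2-fold lower and 0 higher: Cth was 4.62-fold lower with bounds apart (16.0 FPKM in EpiSCs, 77.8 FPKM in LIF+serum), and Gpt2 (5.38 FPKM in EpiSCs, 18.3 FPKM in LIF+serum) and Psph (14.0 FPKM in EpiSCs, 30.1 FPKM in LIF+serum) were lower with overlapping bounds. Synthetase genes of the ATF4 regulon were below 0 in 12 of 12 cases (median -0.63), beside 51.1% of all genes. Aars, for alanine, was 2.34-fold lower with bounds apart (102 FPKM in EpiSCs, 239 FPKM in LIF+serum). Cars was 2.17-fold lower with overlapping bounds (27.8 FPKM in EpiSCs, 61.5 FPKM in LIF+serum). The other synthetase genes were below 0 in 8 of 8 cases with a median of -0.32. Against ESCs in LIF+BMP-4 the medians of these 3 lists were -0.31, -0.09 and -0.14. Amino acid transporter genes had 6 of 9 below 0 against LIF+serum (median -0.29), with 2 of 9 higher, Slc1a4 (10.2 FPKM in EpiSCs, 3.56 FPKM in LIF+serum) and Slc7a6 (34.1 FPKM in EpiSCs, 16.2 FPKM in LIF+serum), and 1 lower, Slc7a1 (2.07 FPKM in EpiSCs, 8.69 FPKM in LIF+serum). Other reported targets had 6 of 13 below 0 (median 0.02), with 2 of 13 higher, Cdkn1a and Stc2, and 1 lower, Gdf15. The bounds overlapped for each of these 6 genes. The 2-fold shares of the other reported targets, and that of the 1 lower transporter gene, are near the background. The hormone gene Stc2 stood at 5.16 FPKM in EpiSCs and 1.58 FPKM in LIF+serum, and Gdf15 at 0.537 FPKM in EpiSCs and 2.85 FPKM in LIF+serum.

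Among other genes of the pathway, Eif2s2, which encodes the beta subunit of eIF2, was 2.58-fold lower in untreated EpiSCs than in LIF+serum ESCs with bounds apart, at 370 FPKM (229 to 512) in EpiSCs and 959 FPKM in LIF+serum. Eif2ak2 stood at 2.60 FPKM in EpiSCs and 5.98 FPKM in LIF+serum. Of the bZIP partners and relatives 4 of 18 were higher and 2 lower, beside the 11.6% and 9.55% of all genes compared, so the share that was lower is near the background. The higher ones were Cebpd (12.0 FPKM in EpiSCs, 0.846 FPKM in LIF+serum), Jun (9.93 FPKM in EpiSCs, 2.08 FPKM in LIF+serum), Fos (3.19 FPKM in EpiSCs, 0.230 FPKM in LIF+serum) and Batf3 (2.61 FPKM in EpiSCs, 0.432 FPKM in LIF+serum). The lower ones were Jdp2 (1.18 FPKM in EpiSCs, 7.56 FPKM in LIF+serum) and Atf1 (31.1 FPKM in EpiSCs, 63.9 FPKM in LIF+serum), with overlapping bounds for all 6. The cell cycle inhibitor gene Cdkn1a, a p53 target that stress also raises, was 4.10-fold higher at 33.3 FPKM in EpiSCs and 7.36 FPKM in LIF+serum, with overlapping bounds. Dnajc3, which encodes an inhibitor of eIF2 kinases, was 2.61-fold higher at 18.4 FPKM in EpiSCs and 6.45 FPKM in LIF+serum, with overlapping bounds.

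BMP-4 in EpiSCs was followed at 1.5 h and 24 h, and none of the 10 genes was 2-fold higher or lower than in untreated cells at either time or between the times. The background was 0.236% higher and 0.182% lower at 1.5 h (0.418% either way), 0.654% and 0.527% at 24 h (1.18%), and 0.609% and 0.427% for 24 h against 1.5 h (1.04%), so few genes of any kind differed. From 1.5-fold, 1 of the 10 was higher and 0 lower at 1.5 h (background 0.681% and 0.5%), 0 and 0 at 24 h (2.19% and 1.75%), and 1 and 1 at 24 h against 1.5 h (1.84% and 1.51%). The medians of the 10 were -0.06, -0.02 and -0.03. Chac1 had the largest difference at 1.5 h, 0.76, at 1.98 FPKM (0 to 4.65) after 1.5 h against 0.760 FPKM in untreated cells, and it stood at 0.660 FPKM after 24 h. That is about 35, 12 and 14 reads at 1.5 h, in untreated cells and at 24 h, with overlapping bounds. Atf3 had the largest difference at 24 h, 0.56, at 11.3 FPKM against 7.33 FPKM in untreated EpiSCs.

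The other 8 genes differed little with BMP-4 in EpiSCs. Their differences at 24 h ran between -0.34 for Trib3 and 0.16 for Ddit4, and Sesn2, Asns and Ddit3 differed by 0.02, -0.01 and -0.03. In each of the 10 pathway lists 0 genes were 2-fold apart at 1.5 h or at 24 h. At 24 h 2.19% of all genes compared were at least 1.5-fold higher and 1.75% lower. From that size, 4 genes of these lists differed at 24 h, with overlapping bounds: Jdp2 (0.66) and Batf3 (0.61) were higher and Cebpd (-0.65) and Slc7a3 were lower. The lowest was Slc7a3, a cationic amino acid carrier gene, at 27.5 FPKM (10.4 to 44.5) after 24 h and 53.0 FPKM (24.1 to 82.0) in untreated EpiSCs, a difference of -0.92.

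The genes most like Atf4 in profile were found by the Euclidean distance of mean-centred log2(FPKM + 1) over the 5 libraries, among 7327 further genes that averaged 5 FPKM or more. Bex1, an X-linked gene of a small adaptor protein family, was nearest at a distance of 0.17. Bex1 stood at 248, 240 and 226 FPKM in EpiSCs in the order of time, 88.2 FPKM in ESCs in LIF+BMP-4 and 366 FPKM in ESCs in LIF+serum. The next were Exoc3l (0.52), Prpf39 (0.56), Phlda1 (0.61), Plaur (0.62), Mns1 (0.66), F2r (0.70) and Mettl13 (0.73). Of the response genes, Atf5 came 10th at 0.76 and Sesn2 ranked 96 at 1.10. Ddit3 ranked 2017, Trib3 6499, Asns 6572, Ddit4 6896, Atf3 6960 and Nupr1 7209, and Chac1 fell below the mean required. Among the ranked response genes, Atf5 and Sesn2 thus had the smallest distances to Atf4, though no cut-off for a near profile was set. Sesn2 was lowest in ESCs in LIF+BMP-4, at 28.2 FPKM, like Atf4. It had no peak in LIF+serum, at 42.5 FPKM against 42.3 to 43.4 FPKM in EpiSCs. With 5 libraries, 1 per group, these are descriptions with no test.

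**Figure D4:**
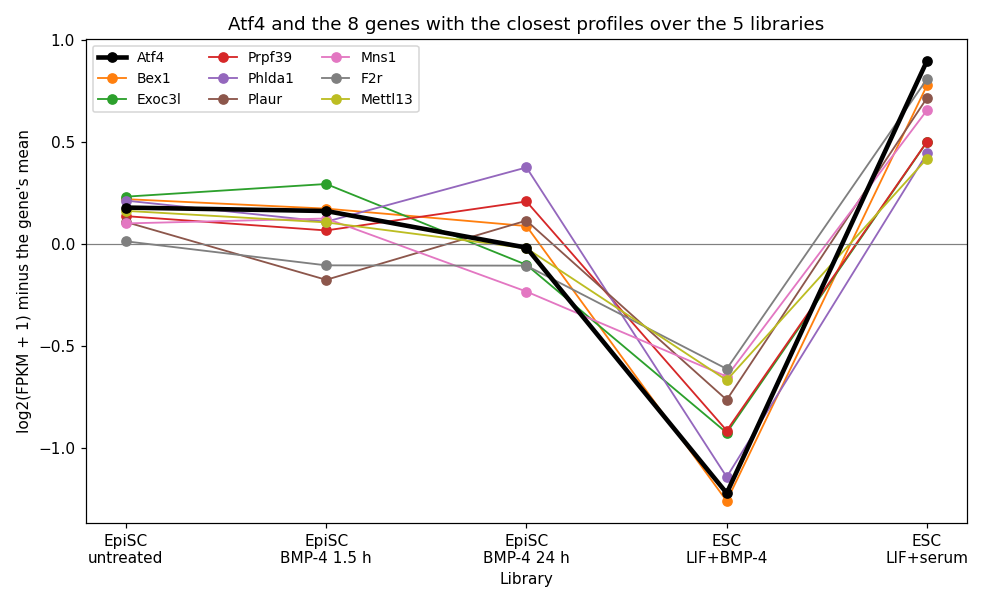
log2(FPKM + 1) minus the gene's own mean in each of the 5 libraries, for Atf4 (black) and the 8 genes with the closest profiles. All 9 have their lowest value in ESCs in LIF+BMP-4 and their highest in ESCs in LIF+serum, and Bex1 lies nearest to Atf4, at a distance of 0.17.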

How the data were processed

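The authors deposited gene-level FPKM. Per the submitters' processing notes the tools were TopHat, Cufflinks 2.0.13, SAMtools and Picard, and the build mm9. The file headers give every FPKM a lower and an upper confidence bound, 95% limits by the definition of Cufflinks, and a status, OK for all 10 members. The annotation, the strand setting and any scaling between libraries: not given in the sources used here. Libraries were directional and poly(A)-selected, per the labels' protocols.

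Differences of log2(FPKM + 1) were computed for 6 comparisons over genes that averaged 1 FPKM or more in the 5 libraries and had status OK in both libraries. The calculation alone was checked on simulated data, for genes averaging 5 FPKM or more and with no variation between cultures. With 1 library per group no test was run. Each library came from 1 labelled sample, and no sample shares a column. Positions are from 1 in mm9, and promoter windows are RefSeq, GRCm38.p6; the builds were never combined. Shares of lists with the element are given where at least 80% of a list had a window. Depth came from the mode of whole-read steps below 0.5 FPKM in 600 genes with 1 transcript over 1500 nt in GENCODE M21, and read numbers use the longest coding transcript, so both are approximate and cover counting only.

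The members and lists were chosen with earlier results of these data known. Named genes are the 10 members, up to 4 higher and 4 lower genes of each list per comparison, genes whose role a sentence needs and the 8 nearest profiles without small RNAs or predicted genes. Alternatives were other pseudocounts, filters, folds and scalings. Of the list genes, Castor1 was matched by its older symbol Gatsl3. Analyses used Python 3.11.15, numpy 2.4.6 and pandas 2.3.3.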

Additional observations from a re-analysis of the deposited data

How the results depend on the processing

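No paired analysis was possible because every group is a single library, and for the same reason no replicate could be left out. For ESCs in LIF+BMP-4 over LIF+serum, 4 members were 2-fold apart, against 2 with a pseudocount of 5 FPKM, 8 from 1.5-fold, 2 from 3-fold and 1 with bounds also apart, and the median of -0.86 became -1.35 with a pseudocount of 0.1 FPKM and -0.60 with 5 FPKM. For untreated EpiSCs over ESCs in LIF+serum, 7 members became 3 with bounds apart, and the median of -1.07 became -1.20, -0.69 and -0.96 with pseudocounts of 0.1 and 5 FPKM and a mean of at least 5 FPKM. Over ESCs in LIF+BMP-4, 6 members became 3 from 3-fold and 2 with bounds apart, and the median of 0.18 became 0.53 with a mean of at least 5 FPKM, which leaves out Chac1. For 1.5 h over untreated EpiSCs, 0 became 1, Chac1, with a pseudocount of 0.1 FPKM and from 1.5-fold, and for 24 h over 1.5 h, 0 became 1 and 2. Ranking by Pearson's r over the 5 libraries kept 1 of the 8 genes nearest to Atf4, Bex1, since r ignores the size of a change. The causes of the other shifts were not tested. Of 240 member differences under another pseudocount or scaling, 7 moved past the deposited bounds' spread, all Atf3 or Nupr1 with another pseudocount: 6 of the values given for EpiSCs, and Atf3 in ESCs in LIF+BMP-4 over LIF+serum, at -1.84 with 0.1 FPKM against -0.58. In all, 0 of those called changed sign (Sesn2 did so near 0 in 2 comparisons) and 10 crossed 2-fold, 9 of them with a pseudocount and Trib3 in EpiSCs over ESCs in LIF+BMP-4 by upper quartile scaling. Scaling moved the median of all genes by under 0.1 (log2) in every comparison. Chac1 in 4 libraries, Atf3 in ESCs and Nupr1 in EpiSCs rest on few reads, which limits their folds.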
